A study of Homo sapiens with 14 samples.

Results

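A set of developmental transcription factor genes was followed across HEK293 lines that carried a HOX transgene: MSX1, MSX2, DLX1, DLX2, TBX2, TBX3, RUNX2, GLI3, HAND2 and DACH1. These 10 genes, of 19775 genes named on the array, were taken by symbol, and all 33 probe sets annotated to them were read on all 14 arrays. HEK293 is a human embryonic kidney cell line. All 14 cultures had received a tagged plasmid and had been grown under G418, an antibiotic that only cells with the plasmid's resistance gene survive. Among the sample titles, only some of those of the HA vector name G418. The controls carried a vector with the tag alone: 3 arrays of the HA-tag vector and 3 of the V5-tag vector, labelled as biological replicates. The HOX groups carried HA-tag HOXD9 (4 arrays) or V5-tag HOXD13 (4 arrays), in each case 1 mixed population (mix) and 3 clones, a, b and c, derived from it. The lines of each HOX gene therefore share a source and are not independent, each clone is 1 line, and the p-values below measure the spread between these cultures, part of which may be technical. The promoter that drives the transgenes is not given in the sources used here.

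The 10 factors are best known from the developing limb. The posterior HOXD genes are switched on in the limb bud in nested domains, with HOXD13 acting in the hand and foot and HOXD9 earlier and more proximally. GLI3 carries the hedgehog signal and, as a repressor, limits digit number. HAND2 helps to start hedgehog expression at the posterior margin, and TBX2 and TBX3 are T-box repressors of the posterior and anterior margins. MSX1 and MSX2 are homeodomain repressors that answer BMP signals, DLX1 and DLX2 are distal-less homeodomain factors, DACH1 is a nuclear cofactor of the eye and limb determination network, and RUNX2 directs osteoblast formation. HEK293 is not a limb cell, and the values describe these genes in a kidney-derived line.

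Expression was given as GCRMA values in log2 units. A difference of 1 unit is a factor of 2, and transcripts that are not detected lie near a floor slightly above 2. The arrays of the HA tag (HA vector and HOXD9) and of the V5 tag (V5 vector and HOXD13) had been normalized separately, so levels are compared only within a tag set, and never between probe sets. A probe set was tested where 3 or more of the 14 arrays read 5 or higher, which 19816 probe sets met, and was called where the Benjamini-Hochberg adjusted p of the limma fit over all of them was under 0.05. Both transgenes were read. HOXD9 probe set 205605_at was at 2.73 ± 0.18 (SD, n = 3) with the HA vector and at 6.84, 6.70, 6.65 and 7.76 in the HOXD9 mix and clones a, b and c. The other HOXD9 probe set, 205604_at, differed little. It was at 4.22 ± 0.02 (SD, n = 3) with the HA vector and at 4.33, 4.54, 4.37 and 4.38 in these lines (0.19, adjusted p = 0.653). HOXD13 probe set 207397_s_at was at 6.93 ± 0.09 (SD, n = 3) with the V5 vector and at 12.32, 12.55, 12.59 and 12.24 in the same order of HOXD13 lines. Every line thus carried its labelled gene, clone c of HOXD13 included. HOXD13 probe set 236681_at read differently: it was at 8.93 to 8.95 with the V5 vector, at 10.15, 10.23 and 10.42 in the mixed population and clones a and b, and at 8.87 in clone c. Of 8 markers fixed for HEK293, 6 were detected, with NEFM at the floor and PAX2 below the filter at 3.21 to 4.89. COL1A1, a fibroblast marker, and COL2A1, a cartilage marker, were detected (the other 6 fibroblast and 3 chondrocyte markers were not tested), no blood, endothelial, osteoblast or skeletal muscle marker passed the filter, and none of the markers was called in either comparison.

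Of the 33 probe sets, 16 passed the filter, and they covered 9 of the 10 genes. A further 14 were under 3 on all 14 arrays, between 2.17 and 2.54, and 3 were dim throughout, between 3.13 and 4.77 (1 each for MSX1, DLX1 and TBX2). HAND2 had a single probe set, 220480_at, and it lay at the floor in all groups, at 2.32 in both groups of the HA set and 2.27 in both groups of the V5 set, so no change of HAND2 could be measured here. RUNX2 was read by 1 probe set of 6, with the other 5 at the floor. TBX3 had 4 of 7 probe sets at the floor, and its probe set 229576_s_at passed the filter only through the HOXD13 mixed population and clones a and b, so its passing is no support for a difference. TBX2 213417_at passed through 2 V5 vector arrays and the same 3 lines. The vector arrays alone would not have met the filter, so its passing is no support for a difference either. DACH1 was the only member of the 10 with every probe set tested.

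**Figure D1:**
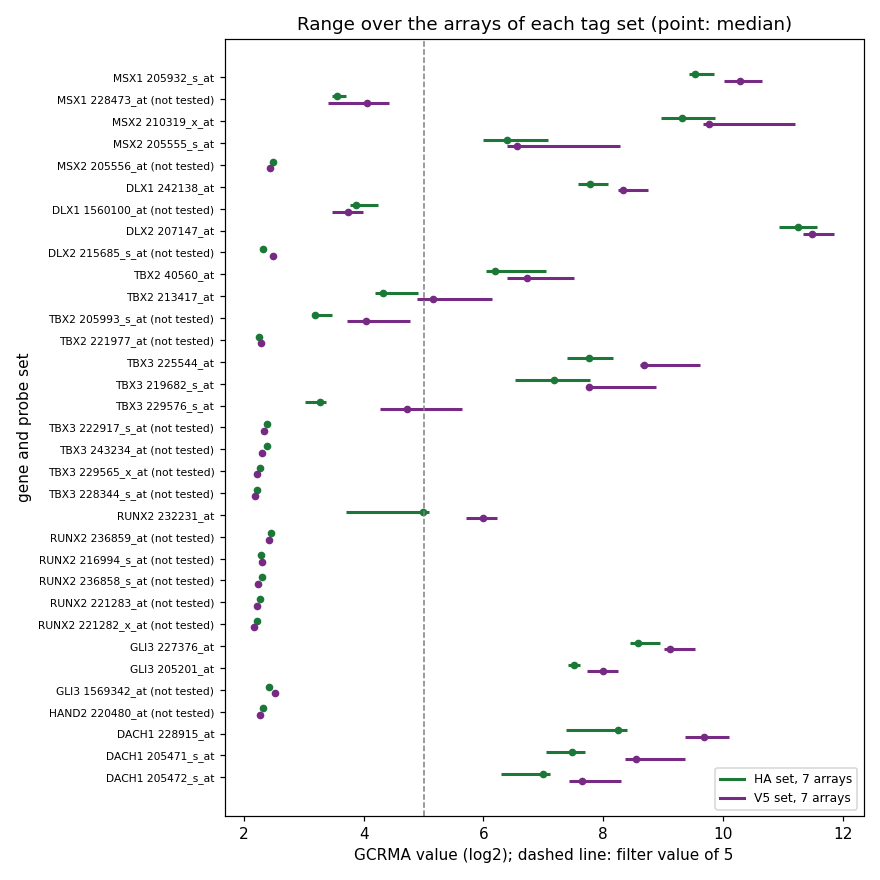
Range of each of the 33 probe sets over the 7 arrays of the HA set (green) and of the V5 set (purple) on the log2 scale, with the median as a point and the filter value of 5 as a dashed line. The 14 floor probe sets sit between 2.17 and 2.54, HAND2 among them, while the 16 tested probe sets reach 5 or more on at least 3 arrays.

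With HOXD13, MSX2 was higher than with the V5 vector, and DLX1 and GLI3 were lower: 1 probe set of each was called. The 13 other tested probe sets were not called, although MSX2's other probe set and all those of TBX2, TBX3 and DACH1 had fitted differences above 0, and DLX2 and the other GLI3 probe set had fitted differences below 0. In the limma fit 8.68% of all tested probe sets were called in this comparison, 2.49% higher and 6.19% lower, and the members' 3 calls of 16 (1 higher, 2 lower) are too few to set them apart from that background. The members' median difference was 0.47 on the log2 scale against -0.02 over all tested probe sets, and the median size of a difference was 0.47 against 0.22. The 9 tested probe sets of the HEK293 marker list had a median difference of 0.45 in the same comparison, so a median of this size was not particular to the members. At an unadjusted p under 0.05 stood 12 of the 16, against 25.1% of all tested probe sets.

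MSX2, a homeodomain repressor downstream of BMP, had the largest fitted differences among the 10 genes. Its probe set 210319_x_at was at 9.66, 9.74 and 9.68 on the V5 vector arrays, and at 10.78, 11.20, 11.10 and 9.77 in the HOXD13 mix and clones a, b and c. The mixed population and clones a and b stood more than 1 log2 unit above the vector arrays, and clone c stood just above the highest of them. The fitted difference was 1.02 (SE 0.29; 2.03-fold; adjusted p = 0.0457). The second probe set, 205555_s_at, was at 6.56, 6.39 and 6.44 with the vector and at 7.54, 8.29, 8.19 and 6.45 in the lines, with clone c inside the vector range. Its fitted difference of 1.15 (SE 0.34) was not called (adjusted p = 0.0542). The suffix of 210319_x_at marks probes that can bind other transcripts as well, and both probe sets showed the same order of HOXD13 lines. Over the 8 HOX lines the shifts of the 2 MSX2 probe sets had a Pearson correlation of 0.931, as a description over lines that share sources. In HOXD9 clone a the shifts were opposite, -0.30 on 210319_x_at and 0.44 on 205555_s_at. The remaining MSX2 probe set, 205556_at, lay at the floor.

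MSX1, its paralog, was not called. MSX1 probe set 205932_s_at was at 10.29, 10.21 and 10.27 with the vector and at 10.42, 10.65, 10.63 and 10.02 in the lines, a fitted difference of 0.18 (SE 0.14, adjusted p = 0.488). Here clone c lay below the vector range and the 3 others above it.

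TBX3 and TBX2, the T-box repressors, showed the same split of lines. TBX3 probe set 225544_at was at 8.68, 8.69 and 8.62 with the vector, at 9.46, 9.54 and 9.61 in the mixed population and clones a and b, and at 8.65 in clone c. TBX3 probe set 219682_s_at was at 7.74, 7.76 and 7.76 with the vector, at 8.52, 8.78 and 8.88 in the same 3 lines, and at 7.76 in clone c. In both, 3 lines lay clear of the vector arrays and clone c lay among them. The fitted differences were 0.66 (SE 0.22, adjusted p = 0.0774) and 0.73 (SE 0.28, adjusted p = 0.119), neither called. TBX3 229576_s_at, near the filter value, was at 4.45 to 4.72 with the vector, at 5.18, 5.39 and 5.65 in the same 3 lines and at 4.27 in clone c, below the vector range (0.49, SE 0.24, adjusted p = 0.221). For TBX2 probe set 213417_at the vector arrays were at 5.15, 5.15 and 4.91 and the lines at 5.61, 6.03, 6.15 and 4.88, and for 40560_at they were at 6.72, 6.64 and 6.55 against 6.996, 7.39, 7.50 and 6.40. Clone c was the lowest array of the V5 set in both TBX2 probe sets. Neither TBX2 difference was called (0.60, SE 0.26, adjusted p = 0.174; and 0.43, SE 0.26, adjusted p = 0.317).

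DLX1, DLX2 and GLI3 were lower in every HOXD13 line, clone c included. DLX1 probe set 242138_at was at 8.71, 8.75 and 8.67 with the V5 vector and at 8.26, 8.27, 8.30 and 8.33 in the lines, with no overlap and a range of 0.08 among the 4 lines. It fell by 0.42 on the log2 scale (SE 0.11; 1.34-fold; adjusted p = 0.0393). DLX2, which neighbours DLX1 on chromosome 2, was at 11.76, 11.86 and 11.77 with the vector and at 11.34, 11.48, 11.47 and 11.42 in the lines on probe set 207147_at. These groups did not overlap either, but the difference of -0.37 (SE 0.13) was not called (adjusted p = 0.0894). DLX2 was called in the V5 set alone (adjusted p = 0.0466), with weights per group (0.0434), with the ACTB covariate (0.0463) and without HOXD9 clone a (0.0253) or c (0.0316), and in the V5 set alone MSX2 (adjusted p = 0.122) and GLI3 205201_at (0.0619) were not. GLI3 probe set 205201_at was at 8.26, 8.17 and 8.24 with the vector and at 7.86, 7.73, 7.84 and 7.99 in the lines, and it fell by 0.37 (SE 0.09; 1.29-fold; adjusted p = 0.0266). GLI3 probe set 227376_at was at 9.40, 9.37 and 9.54 against 9.12, 9.05, 9.11 and 9.02, again without overlap, and its difference of -0.36 (SE 0.12) was not called (adjusted p = 0.0767).

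DACH1 was higher in all 4 HOXD13 lines than on any V5 vector array in each of its 3 probe sets, and none of the 3 was called. Probe set 205471_s_at was at 8.36, 8.51 and 8.45 with the vector and at 8.98, 9.38, 9.12 and 8.54 in the lines (difference 0.57, SE 0.17, adjusted p = 0.0621). Probe set 205472_s_at was at 7.51, 7.52 and 7.44 against 7.84, 8.30, 8.12 and 7.65 (0.49, SE 0.17, adjusted p = 0.0920), and 228915_at at 9.41, 9.45 and 9.37 against 9.82, 10.09, 9.80 and 9.69 (0.44, SE 0.17, adjusted p = 0.132). Clone a was the highest and clone c the lowest of the 4 lines in all 3. RUNX2 probe set 232231_at overlapped between the groups: 5.98, 5.92 and 6.22 with the vector, and 5.99, 6.15, 6.11 and 5.71 in the lines (-0.05, SE 0.27, adjusted p = 0.945).

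In all, 4 of the 16 tested probe sets were higher in every HOXD13 line than on every vector array (MSX2 210319_x_at and the 3 of DACH1), 4 were lower in every line (DLX1, DLX2 and both of GLI3), and 8 overlapped. Over all tested probe sets 8.60% were higher in this sense and 18.1% lower.

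**Figure D2:**
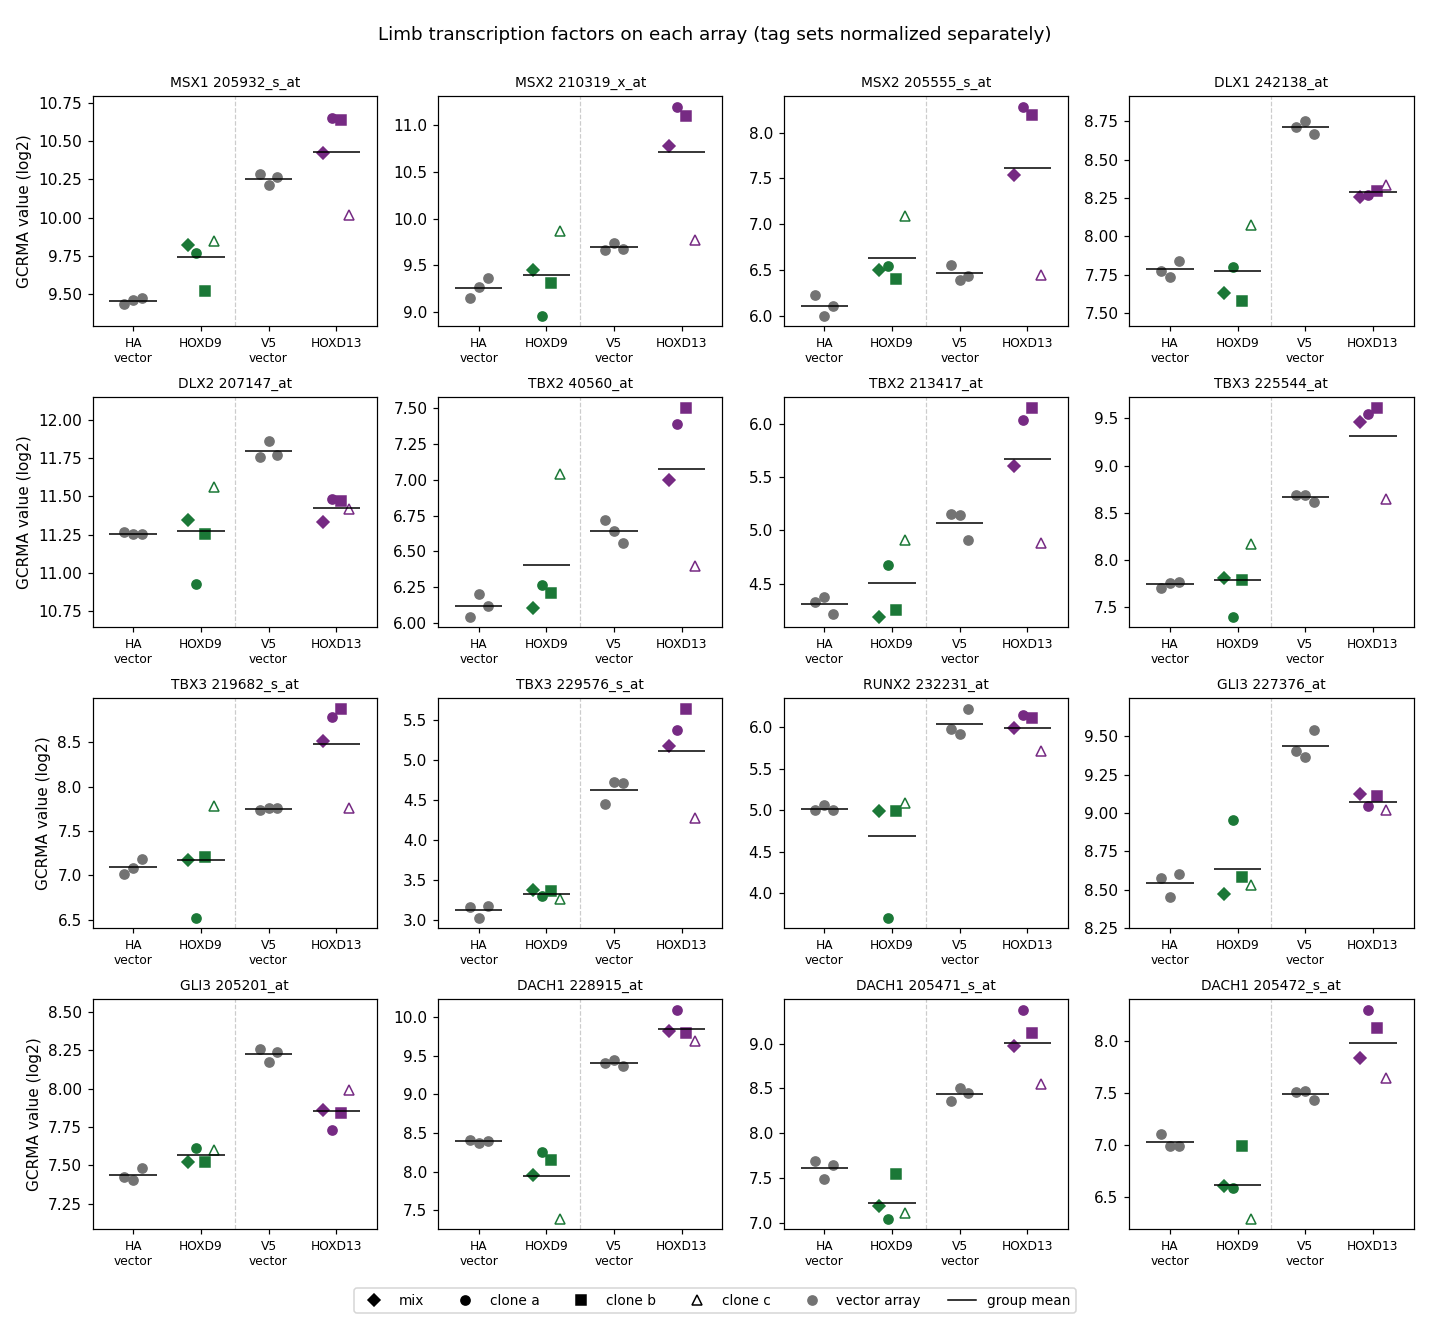
Value of each tested probe set of the 10 genes on every array (log2 scale, own axis per panel, with the HA set left and the V5 set right of the dashed line): grey circles for vector arrays, diamonds for mixed populations, filled circles, squares and open triangles for clones a, b and c, and a bar for the group mean. The open purple triangle of HOXD13 clone c sits at vector level for MSX2 (9.77), TBX3 225544_at and TBX3 219682_s_at, below the vector arrays for TBX3 229576_s_at and both TBX2 probe sets, and with the other lines for DLX1 (8.33), DLX2 and GLI3.

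The counts turned on single lines, and most of all on clone c, which stood apart from the other HOXD13 lines in a control measurement as well. The ACTB 3′ control probe set exceeded the 5′ one by 2.80 log2 units in clone c, by 2.13, 2.01 and 1.82 in the mixed population and clones a and b, and by 2.19 to 2.26 with the V5 vector. This difference is read as a measure of RNA quality, and its part in the values of the members was not tested. The same difference for GAPDH was 0.861 in clone c, 0.533, 0.568 and 0.561 in the mixed population and clones a and b, and 0.682 to 0.719 with the V5 vector. Shifts of more than 0.5 log2 units from the mean of the vector arrays were seen in 7 of the 16 member probe sets in the mixed population, in 10 in clone a, in 9 in clone b and in 0 in clone c, although 27.0% of all tested probe sets moved that far in clone c, against 22.8%, 29.9% and 35.9% in the other 3. Without clone c, 10 member probe sets were called higher and 3 lower, where 17.3% of all tested probe sets were called higher and 15.5% lower. The 10 were both of MSX2, both of TBX2, the 3 of TBX3 (229576_s_at, which passed the filter through these lines, among them), 205932_s_at of MSX1 and 2 of DACH1, and the 3 were DLX1 and both of GLI3. MSX2 then differed by 1.33 (SE 0.19, adjusted p = 0.000222) and 1.54 (SE 0.20, adjusted p = 0.000141), and TBX3 225544_at by 0.88 (SE 0.15, adjusted p = 0.000793). TBX2 213417_at differed by 0.86 (SE 0.19, adjusted p = 0.00422). It met the filter only with the help of these same lines, so its call is no support for a difference. DLX1, whose 4 lines were within 0.08 of each other, differed by -0.44 (adjusted p = 0.0130), and GLI3 205201_at by -0.41 (adjusted p = 0.00207). Leaving out any 1 of the 6 other arrays of this comparison had the opposite effect: no member was called without V5 vector array 1, 2 or 3 or without the HOXD13 mixed population, clone a or clone b, and without any 1 HA vector array only GLI3 205201_at was. Lines of the other transgene enter through the shared spread. Without HOXD9 clone a 5 member probe sets were called, beside 2126 of all 19816 tested. Without HOXD9 clone c 7 member probe sets were called, beside 2780 of all tested. With the ACTB difference of each array as a covariate, 9 member probe sets were called, 5 higher and 4 lower. Calls over all 19816 tested probe sets rose as well, from 1721 to 4454.

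**Figure D3:**
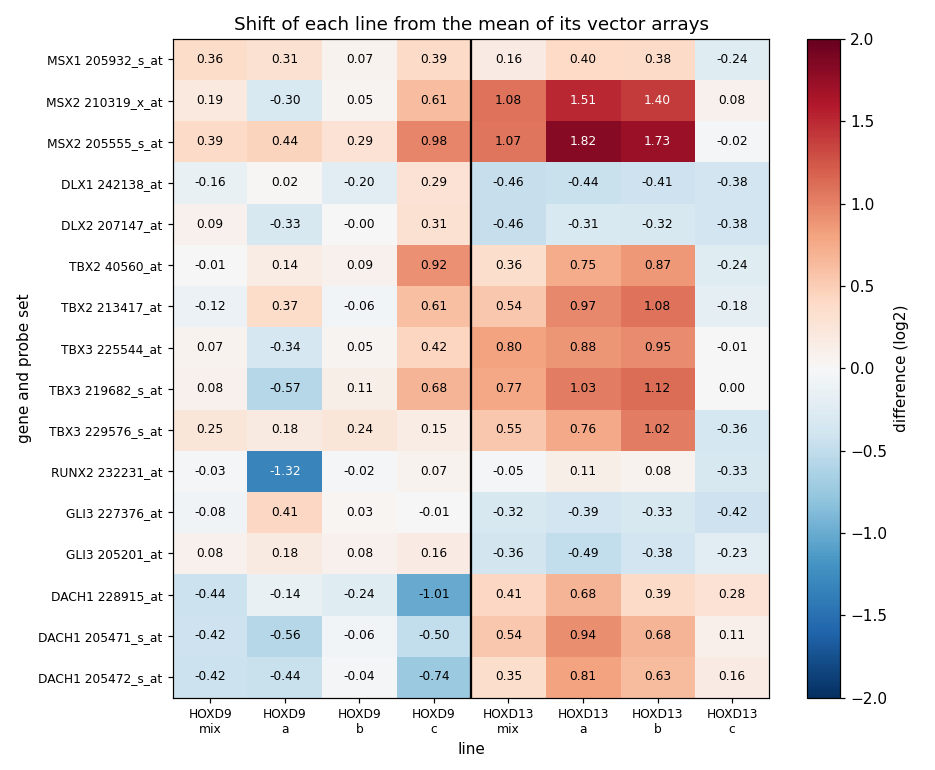
Shift of each tested member probe set in each line from the mean of the vector arrays of its own tag (log2 units; red above, blue below), with HOXD9 lines left and HOXD13 lines right. MSX2, TBX2 and TBX3 are red in the HOXD13 mixed population and clones a and b and pale in clone c (MSX2 205555_s_at: 1.07, 1.82, 1.73 and -0.02), while DLX1 is blue in all 4 (-0.46, -0.44, -0.41 and -0.38).

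RefSeq promoter sequences were matched by symbol for 7 of the 10 genes, all but TBX2, TBX3 and GLI3. The 250 bases before the start are shown for MSX2, DLX1 and DACH1, the genes called in 1 of the comparisons whose sequence was at hand. MSX2 and DLX1 were called with HOXD13, and DACH1 only where the HOXD13 effect was set against the HOXD9 effect. The motif marked is TAAT, the core of homeodomain binding sites. Each window is written 5′ to 3′ on the gene's own strand, with TAAT and its reverse complement ATTA in capitals.
MSX2: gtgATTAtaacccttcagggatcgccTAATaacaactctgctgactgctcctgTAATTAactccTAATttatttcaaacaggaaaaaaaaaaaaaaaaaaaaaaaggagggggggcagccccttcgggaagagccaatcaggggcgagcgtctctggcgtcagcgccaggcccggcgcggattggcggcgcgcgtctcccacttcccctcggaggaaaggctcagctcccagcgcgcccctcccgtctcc
DLX1: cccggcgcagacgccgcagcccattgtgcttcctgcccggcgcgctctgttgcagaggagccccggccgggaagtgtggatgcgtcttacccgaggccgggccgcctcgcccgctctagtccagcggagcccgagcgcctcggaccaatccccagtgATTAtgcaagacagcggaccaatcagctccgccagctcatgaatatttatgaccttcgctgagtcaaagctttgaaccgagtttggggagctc
DACH1: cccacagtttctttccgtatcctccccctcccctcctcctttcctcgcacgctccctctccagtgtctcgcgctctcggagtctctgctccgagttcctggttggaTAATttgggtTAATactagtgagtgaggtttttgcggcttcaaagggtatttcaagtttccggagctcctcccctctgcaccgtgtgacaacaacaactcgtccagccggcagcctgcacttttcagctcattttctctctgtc
The windows lie on GRCh38.p14, MSX2 at chr5:174724332-174724581 (plus strand), DLX1 at chr2:172085257-172085506 (plus strand) and DACH1 at chr13:71867205-71867454 (minus strand). MSX2 holds 5 matches to TAAT on either strand, where overlapping matches such as those within TAATTA count separately. Of 35116 promoter windows of the same length 6.16% hold 5 or more. DACH1 holds 2, and 27.6% of windows hold 2 or more. DLX1 holds 1, and 47.4% of windows hold at least 1. Among members that were not called, HAND2, at the floor on every array, also holds 5 matches to TAAT. RUNX2 holds 2 in 1 window and 0 in the other, MSX1 holds 1 and DLX2 holds 0. The HAND2 window also holds 2 matches to TTTAT and 1 to CAATAAA, the motifs given next. TTTAT, part of sites that posterior HOX proteins prefer, searched on both strands, was found 1 time each in MSX2 and DLX1 and was not in the DACH1 window, against 32.7% of windows with at least 1. CAATAAA, whose reverse complement contains TTTAT, was in none of the 3 windows and in 3.67% of all windows. A match is a run of letters, not a measured site.

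With HOXD9, none of the 16 probe sets was called against the HA vector (adjusted p 0.195 to 0.951 in the limma fit). Few probe sets were called at all: 6 of 19816, or 0.0303%, HOXD9 itself among them. At an unadjusted p under 0.05 stood 3 of the 16, against 20.6% of all tested probe sets, and these 3 were the probe sets of DACH1. DACH1 228915_at was at 8.40, 8.37 and 8.40 with the vector and at 7.96, 8.25, 8.15 and 7.38 in the mix and clones a, b and c, below every vector array (-0.46, SE 0.17, adjusted p = 0.195). Without HOXD9 clone c this difference was -0.27 (adjusted p = 0.346). DACH1 205472_s_at was at 7.11, 6.994 and 6.996 against 6.61, 6.59, 6.992 and 6.29, with clone b just under the lowest vector array (-0.41, SE 0.17, adjusted p = 0.214). DACH1 205471_s_at was at 7.69, 7.48 and 7.64 against 7.19, 7.04, 7.54 and 7.11, and there clone b overlapped the vector arrays (-0.39, SE 0.17, adjusted p = 0.235).

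The other genes gave smaller or less even values with HOXD9. MSX2 205555_s_at was at 6.23, 6.001 and 6.10 with the HA vector and at 6.50, 6.55, 6.40 and 7.09 in the lines, all above the vector (0.52, SE 0.34, adjusted p = 0.364; 0.22 with the ACTB covariate), whereas MSX2 210319_x_at was at 9.14, 9.26 and 9.36 against 9.45, 8.96, 9.31 and 9.87, with clone a below and clone c above the vector arrays (0.14, adjusted p = 0.771). The 2 probe sets of MSX2 thus disagreed in clone a. MSX1 was at 9.44, 9.46 and 9.48 with the vector and at 9.82, 9.77, 9.53 and 9.85 in the lines (0.28, SE 0.14, adjusted p = 0.271; 0.17 with the ACTB covariate). TBX2 40560_at was at 6.04 to 6.20 with the vector, at 6.11 to 6.26 in the mixed population and clones a and b, and at 7.04 in clone c, and its difference of 0.28 was 0.07 without clone c. RUNX2 232231_at was at 4.997 to 5.06 with the vector, at 4.99 to 5.09 in the mixed population and clones b and c, and at 3.70 in clone a, and its difference of -0.32 (adjusted p = 0.464) was 0.01 without clone a. Those were single-line values, and clones a and c were also the HOXD9 lines in which most probe sets moved: 29.4% of all tested probe sets in clone a and 51.4% in clone c lay more than 0.5 log2 units from the vector mean, against 4.17% in the mixed population and 2.61% in clone b. Among the members 3 and 7 of 16 did so in clones a and c, and 0 in the mixed population and clone b. The ACTB 3′ to 5′ difference was 1.70 in clone a and 2.10 in clone c against 2.29 to 2.37 with the HA vector, and its part in these values was not tested. The GAPDH difference did not set clone a apart: 0.639, against 0.643 in the mixed population and 0.645 in clone b. It was 0.607 in clone c and 0.646 to 0.686 with the HA vector. Of the 16, 4 were above every vector array in all 4 HOXD9 lines (18.0% of all tested probe sets) and 2 below (14.2%).

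**Figure D4:**
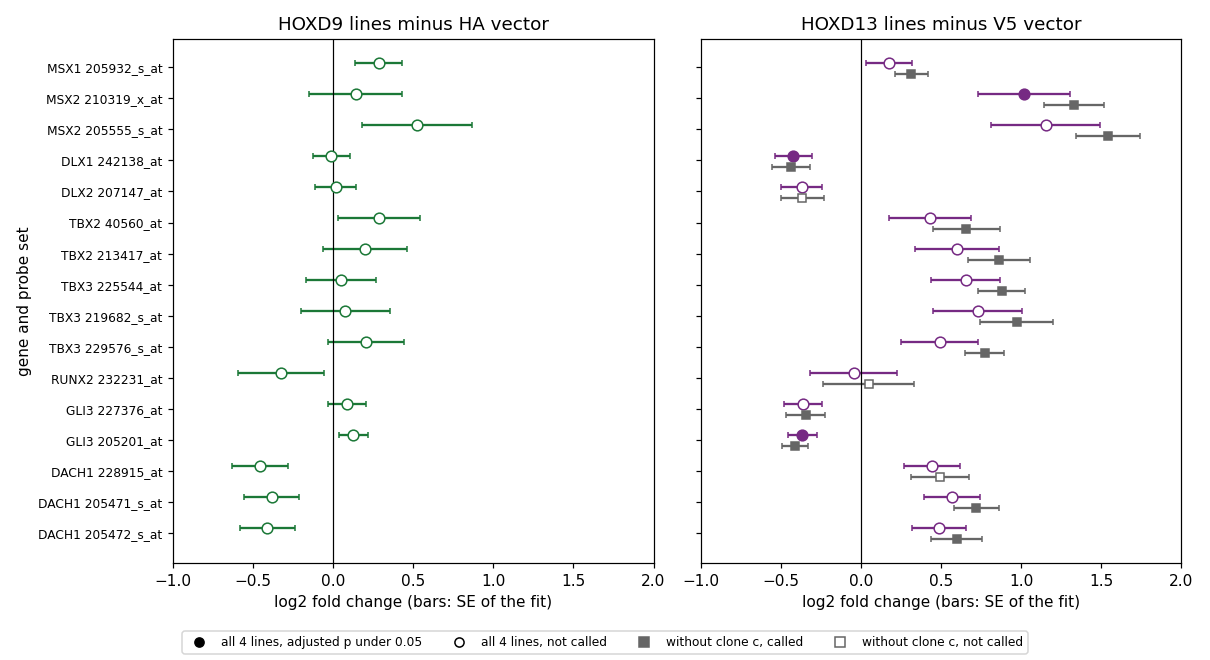
Fitted log2 fold change of each tested member probe set with its standard error for HOXD9 lines against the HA vector (left) and HOXD13 lines against the V5 vector (right); filled circles are called with all 4 lines, and grey squares give the fit without HOXD13 clone c. DACH1 lies at -0.46 to -0.39 on the left and at 0.44 to 0.57 on the right, and MSX2 moves from 1.02 to 1.33 when clone c is left out.

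DACH1, on all 3 probe sets, and GLI3, on 205201_at only, differed between the transgenes. The difference between the HOXD13 effect and the HOXD9 effect, each formed within its own tag set, was called for 4 of the 16 member probe sets, where 6.56% of all tested probe sets were called. For DACH1 it was 0.95 (SE 0.25, adjusted p = 0.0391), 0.90 (SE 0.24, adjusted p = 0.0432) and 0.90 (SE 0.25, adjusted p = 0.0475) on probe sets 205471_s_at, 205472_s_at and 228915_at, in the limma fit. All 3 DACH1 probe sets lay higher with HOXD13 and lower with HOXD9, and the 2 separate effects were themselves not called. For GLI3 205201_at the difference was -0.49 (SE 0.13, adjusted p = 0.0387), with -0.37 for HOXD13 and 0.13 for HOXD9. For the other 12 the difference was not called. Among them were GLI3 227376_at (-0.45, SE 0.17, adjusted p = 0.129), MSX2 210319_x_at (0.88, SE 0.41, adjusted p = 0.219) and DLX1 (-0.41, SE 0.16, adjusted p = 0.153). No difference of effects was called without any 1 of the 6 vector arrays, the HOXD9 mixed population, the HOXD13 mixed population, or HOXD13 clone a or b, 2 were called without HOXD9 clone c, and 8 were called without HOXD13 clone c (7 higher, 1 lower, against 18.6% of all tested probe sets); the 7 include TBX3 229576_s_at, which passed the filter only through the lines tested there.

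The genes around these factors were read from lists of their pathways. No probe set of any list was called with HOXD9. With HOXD13, 1 of 20 tested probe sets of other limb homeobox and T-box genes was called, SHOX2, a homeodomain factor of the proximal limb, higher by 0.46 (adjusted p = 0.0120), and the list's median difference was 0.23. Of 30 probe sets of other limb transcription factors 1 was called higher and 2 lower: SP8, a zinc finger factor of the limb ridge, by 0.86 (adjusted p = 0.0317), EYA2, a partner of the sine oculis factors, by -0.66 (adjusted p = 0.0166), and BHLHE41 by -0.42 (adjusted p = 0.0377). Of 7 probe sets of HOX genes other than the transgenes 2 were called, both higher: HOXC9 by 1.42 (adjusted p = 0.00225) and HOXD10 by 0.45 (adjusted p = 0.0420). For HOXD10 that was 1 of 3 tested probe sets and for SHOX2 1 of 2, and the others were not called.

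Lists of signals that act on or through the 10 factors held 7 to 33 tested probe sets each. With HOXD13, the share called was 20.0% for FGF and 14.3% for both hedgehog and the genes repressed by TBX2 and TBX3. It was 6.06% for BMP, 3.70% for WNT and retinoic acid and 0% for RUNX2 targets, beside 8.68% of all tested probe sets. In the hedgehog list, the pathway of GLI3, 1 of 14 was called higher and 1 lower: GAS1, a hedgehog co-receptor, by 0.85 (adjusted p = 0.0467) and HHAT, the enzyme that attaches palmitate to hedgehog ligands, by -0.54 (adjusted p = 0.0215). In the BMP list, upstream of MSX1 and MSX2, 2 of 33 were called, both probe sets of the ligand BMP2, higher by 0.996 (adjusted p = 0.00728) and 0.81 (adjusted p = 0.0146), with a list median of 0.12. BMP2 205290_s_at stood at 8.30 ± 0.07 (SD, n = 3) with the vector and 9.29 ± 0.36 (SD, n = 4) in the lines, and its shift in clone c was 0.48. In the FGF list 2 of 15 were called higher, the receptor FGFR3 by 1.06 (adjusted p = 0.00985) and the feedback phosphatase DUSP6 by 1.0 (adjusted p = 0.0314). The 1 called lower was IL17RD, an inhibitor of FGF signalling, by -0.55 (adjusted p = 0.0234). DUSP6 was at 4.38 ± 0.13 (SD, n = 3) with the V5 vector and at 5.38 ± 0.66 (SD, n = 4) in the lines. Within the V5 set only HOXD13 lines took it to the filter value of 5. Its call and its part in the share of the FGF list are therefore no support for a difference. In the WNT and retinoic acid list 1 of 27 was called, the co-receptor LRP5, by -0.71 (adjusted p = 0.0320). LRP5 was at 5.18 ± 0.22 (SD, n = 3) with the V5 vector and at 4.47 ± 0.16 (SD, n = 4) in the lines. Within the V5 set only vector arrays took it to the filter value of 5, so its call is no support either. None of 8 probe sets of RUNX2 skeletal targets was called. Of 7 probe sets of genes that TBX2 and TBX3 are known to repress 1 was called, CDKN2B, a cyclin-dependent kinase inhibitor, and it was higher, by 1.23 (adjusted p = 0.00463). In clone c the shifts from the vector mean were 0.90 for HOXC9, 0.87 for CDKN2B and 0.76 for HOXD10, but 0.18 for DUSP6 and 0.10 for GAS1, so the list genes, too, differed in whether clone c moved with the other lines. The members of these lists were chosen with earlier results of these data known, and their 15 calls of 161 tested probe sets (9.32%) stand beside the 8.68% of all tested probe sets.

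Between the transgenes, 7 of the 161 tested probe sets of these lists had a called difference of effects, or 4.35%, under the 6.56% of all tested probe sets, so the lists were not set apart by it: SHOX2 (0.52), HOXC9 (1.18), WNT5A (0.69) and CDKN2B (1.57) were higher with HOXD13 relative to HOXD9, and PBX2 (-0.64), EYA2 (-0.85) and LRP5 (-1.08) lower. The adjusted p of these 7 ran from 0.00994 to 0.0370, and for SHOX2, WNT5A and PBX2 this was 1 of 2 tested probe sets. LRP5 lay near the filter value in the V5 set, as given above.

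For the 3 genes called with HOXD13, the genes whose values over the 7 arrays of the V5 set were most like them were sought among 10348 genes, 1 probe set each. MSX2 was closest to PUS3, ZNF57 and GEMIN6 (Pearson r 0.998 each), DLX1 to GSN (0.999), GPR157 (0.997) and SUMO3 (0.997), and GLI3 to ATP5F1A (0.996), RNASEH1 (0.995) and CRYZL1 (0.995). With 7 arrays in 2 groups and a search this wide, such values describe these arrays only.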

How the data were processed

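RNA of 14 HEK293 cultures was hybridised to Affymetrix arrays after biotin labelling, per the labels' protocols. The deposited values are log2 expression values, 1 per probe set, made with GCRMA per the submitters' processing notes. GCRMA corrects background by probe sequence, quantile-normalizes arrays and summarises probe sets, and for its version and the genome build the sources used here give nothing. Once sorted, the values of the 7 HA-set arrays were equal to within 0.00102 and those of the V5 set to within 0.00195, with 75th percentiles of 6.27 and 7.02, so each set had been normalized by itself. No 2 arrays held identical values. The number of arrays, not a depth, limits the precision.

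Of 54675 probe sets 62 were array controls, and 19816 passed the filter. Genes were named from the platform annotation (41097 probe sets with 1 gene, 1801 with several, 11777 with none listed), and 41043 were matched to RefSeq. limma 3.58.1 in R 4.3.3 was fitted with 4 group means over all 14 arrays (two-sided, residual df 10, prior df 3.01). Its recovery of known changes was checked on simulated data. The simulated lines were drawn independently, unlike lines that share a source, so the error rate of the calls here was not tested. The fit assumes 1 spread for all groups, while the median SD of a probe set was 0.05 (HA vector), 0.28 (HOXD9), 0.06 (V5 vector) and 0.27 (HOXD13). Plots used matplotlib 3.10.9 (Python 3.11.15), and data.table (1.17.8) read the files. Promoters came from RefSeq (GRCh38.p14).

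The members and lists were chosen with earlier results of these data known. Named were all member probe sets, the transgenes, up to 4 called probe sets of largest change per list and comparison (1 per gene), and the 3 genes most correlated with each called member. A second BMP2 probe set was named after its values were seen. Alternatives were no filter, a filter at 6, the tag set alone, weights per group, a robust intensity trend, centred arrays, 1 probe set per gene, the ACTB 3′ to 5′ difference as a covariate, and each array left out.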

Additional observations from a re-analysis of the deposited data

Results flagged for a closer look

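In 3 of 32 groups of 4 lines, 1 line stood far from the other 3 by Dixon's test, which chance gives in about 1 of 20 groups. TBX3 225544_at was at 8.65 in HOXD13 clone c against 9.46 to 9.61 in the other HOXD13 lines. RUNX2 232231_at was at 3.70 in HOXD9 clone a against 4.99 to 5.09 in the others. TBX2 40560_at was at 7.04 in HOXD9 clone c against 6.11 to 6.26 in the others.

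The effects of HOXD13 and HOXD9 differed by the limma test of the difference for GLI3 205201_at (-0.49) and for DACH1 205471_s_at (0.95), 205472_s_at (0.90) and 228915_at (0.90).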

How the results depend on the processing

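Of the member probe sets 0 were called with HOXD9 under every alternative. With HOXD13 the main count of 3 became 1 with no filter, 10 with weights per group and 9 with the ACTB covariate, and ran from 0 to 13 (without clone c) when each array was left out. For the difference of effects the main count of 4 became 1 with no filter and 1 with 1 probe set per gene, and ran from 0 to 8 when each array was left out. Over all probe sets, 6 calls with HOXD9 became 11 with no filter, 1 in the tag set alone, 1 with 1 probe set per gene and 33 with the ACTB covariate (1 to 787 with an array left out, 787 without HOXD13 clone c). The 1721 with HOXD13 became 1112 with no filter, 2898 with weights per group, 1101 with 1 probe set per gene and 4454 with the ACTB covariate (371 to 6496). The share called higher, 28.7%, was 40.9% with weights per group, 44.0% with the ACTB covariate and 52.6% without clone c.

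The MSX2 210319_x_at call was lost in 13 of 22 alternatives (adjusted p 0.000222 to 0.162), DLX1 in 10 of 22 (0.00589 to 0.151) and GLI3 205201_at in 7 of 21 (0.00207 to 0.119), with the direction kept in all. The 4 called differences of effects were lost in 11 to 13 of 20 or 21. Some HOXD9 differences, none called, changed sign: with the ACTB covariate MSX2 210319_x_at was -0.0382, TBX2 213417_at -0.0496, TBX3 219682_s_at -0.0284, TBX3 225544_at -0.0637 and TBX3 229576_s_at -0.00244, and without a change of sign MSX2 205555_s_at moved from 0.523 to 0.218, MSX1 from 0.283 to 0.165 and TBX2 40560_at from 0.284 to 0.0999. With an array left out DLX2 207147_at ran from -0.0820 to 0.129, MSX2 210319_x_at from -0.0163 to 0.286, TBX3 219682_s_at from -0.126 to 0.292, TBX3 225544_at from -0.0758 to 0.180, GLI3 227376_at from -0.0195 to 0.143, RUNX2 232231_at from -0.456 to 0.00553 (without clone a; -0.325 with all lines), and DLX1 242138_at from -0.114 to 0.0511. RUNX2 with HOXD13 ran from -0.106 to 0.0472. The cause of these changes was not tested.

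No paired analysis was possible because the labels number only the vector arrays, and the HOX lines carry no replicate numbers to pair with them.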
